A study of Homo sapiens with 20 samples.

Results

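The comparison described here is that of a short hairpin RNA (shRNA) against KDM4B with a control shRNA in Rh30, a human alveolar rhabdomyosarcoma cell line that carries the PAX3-FOXO1 fusion gene. Its members were chosen by title: the 2 arrays of Rh30 transduced with the KDM4B hairpin and the 2 arrays of Rh30 transduced with the control hairpin, 4 of the 20 arrays in the series. Both groups were taken 72 h after transduction, and the labels call the arrays biological replicates. All gene-named probe sets were used, with 1 probe set per gene, which gave 17687 genes. The other 16 arrays hold Rh30 with a control siRNA or a KDM4C siRNA for 72 h (2 arrays each), and Rh30 and Rh41, another alveolar rhabdomyosarcoma line, with DMSO or 200 nM of the KDM4 inhibitor QC6352 for 48 h (3 arrays each). Total RNA of every culture, 125 ng per labelling reaction, was hybridised to Affymetrix Clariom S human arrays. The labels give neither the sequence nor the number of KDM4B hairpins and describe no rescue of KDM4B, so an effect of lower KDM4B and an effect of the hairpin on other transcripts cannot be told apart.

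KDM4B is a JmjC-domain lysine demethylase that uses iron and 2-oxoglutarate to take methyl groups off lysines of histone H3, mainly the repressive tri- and dimethyl marks of H3K9, with weaker activity on H3K36. KDM4A, KDM4B and KDM4C are large paralogs with chromatin-reading domains, whereas KDM4D and KDM4E are shorter and lack them. In alveolar rhabdomyosarcoma the fusion factor PAX3-FOXO1 binds enhancers of myogenic genes and keeps the cells in an early, dividing myoblast-like state. A hairpin is processed into a small RNA that guides Argonaute to matching transcripts.

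The values are log2 signals as deposited. The medians of the 4 hairpin arrays over all probe sets lay between 6.95 and 6.97, and the medians of their 23 background control probe sets between 3.9 and 4.0. The median SD of a gene was 0.12 log2 in the control pair and 0.08 log2 in the KDM4B pair. Labels contradict each other for 10 other Rh30 arrays, but for none of the 4 hairpin arrays. Those arrays enter here through the estimate of the spread, which all 20 arrays share, and through the comparisons with KDM4C siRNA and QC6352. Of the 8 rhabdomyosarcoma markers examined, 7 were above the brightest background probe set in all 4 hairpin arrays, the exception being CHRNG, the fetal acetylcholine receptor subunit. In bulk RNA, fewer cells of a kind and less RNA per cell cannot be told apart, and p values measure the spread between arrays, which limits the precision with 2 arrays per group. An exact permutation test of 2 arrays against 2 cannot give a p below 0.333, so single genes were tested only in the limma fit over all genes.

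KDM4B itself read 6.74 and 7.30 log2 in the control arrays and 6.01 and 6.15 in the KDM4B hairpin arrays. Both hairpin arrays lay below both controls, and below the 6.21 to 7.04 of the 10 other Rh30 arrays. The difference was −0.94 ± 0.23 log2 (SE, n = 2 and 2), with an adjusted p of 0.0120 in limma. These signals stand under the brightest background control probe set of their arrays, which read 7.67 to 8.05, and above the background medians of 3.9 to 4.0. The size of the loss is thus measured within the range of the background probe sets. The call for KDM4B was lost when the second control array was left out (−0.66 log2, adjusted p = 0.157), when the first KDM4B hairpin array was (−0.87, adjusted p = 0.0939), when the second was (−1.01, adjusted p = 0.050), and when the 4 arrays were fitted alone (adjusted p = 0.0555).

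None of the paralogs was called lower. KDM4A read 7.98 and 8.19 in the controls and 8.15 and 8.06 under the hairpin, overlapping ranges with a difference of 0.02 ± 0.13 log2 (adjusted p = 0.966 in limma). KDM4C read 6.49 and 6.62 against 6.37 and 6.21, a difference of −0.27 ± 0.19 (adjusted p = 0.445). KDM4D, a paralog with highest known expression in testis, read 4.23 and 4.75 in the controls and 5.09 and 5.78 under the hairpin, and was called higher by 0.94 ± 0.28 (adjusted p = 0.0343 in limma). That call was lost without the first control array (adjusted p = 0.268) or without the second KDM4B hairpin array (adjusted p = 0.347), and under quantile normalization. KDM4E, also at the level of background, read 4.20 and 4.58 against 4.72 and 4.89, a difference of 0.42 ± 0.18 (adjusted p = 0.165). The difference between KDM4B and each paralog was not tested.

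**Figure D1:**
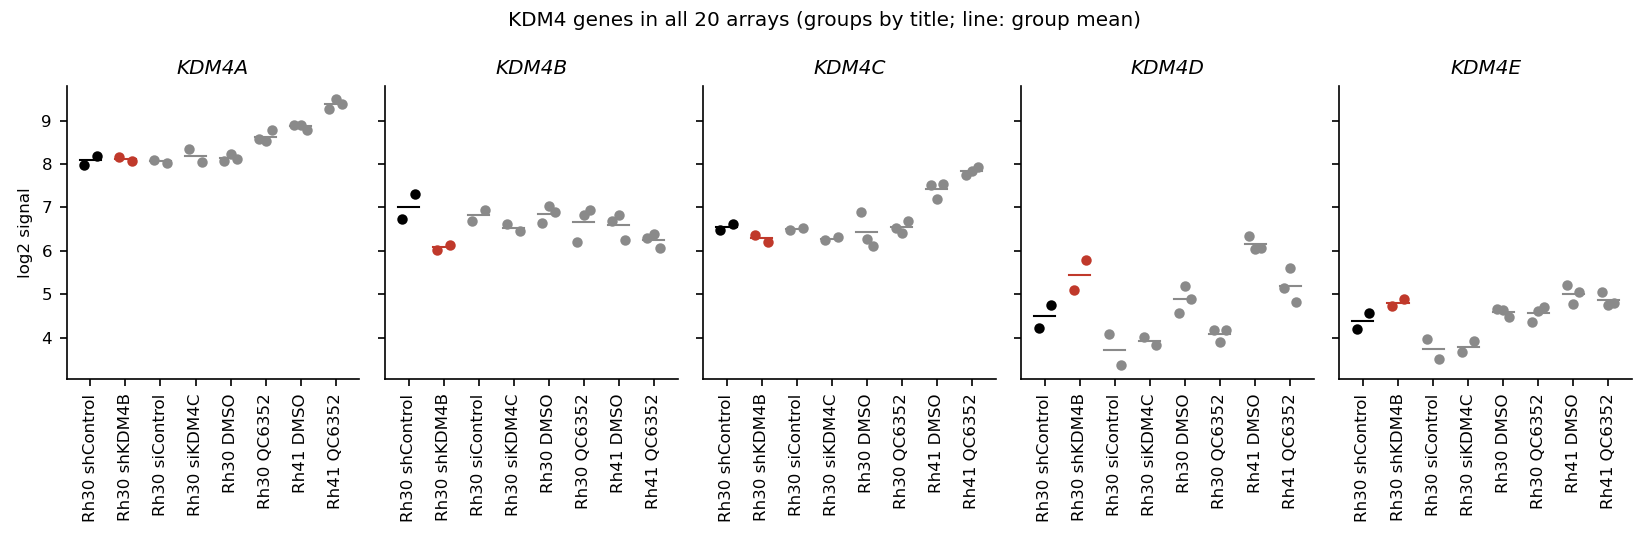
Log2 signal (y axis) of the 5 KDM4 genes in each of the 20 arrays, by group along the x axis; each point is an array and each line a group mean, with the control hairpin in black and the KDM4B hairpin in red. The KDM4B hairpin arrays, at 6.01 and 6.15, are the lowest Rh30 arrays for KDM4B, while KDM4A reads 7.98 to 8.19 in all 4 hairpin arrays.

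Across the 17687 genes, 2047 (11.6%) passed an adjusted p of 0.05, 931 higher (5.26%) and 1116 lower (6.31%) under the KDM4B hairpin. The 2 arrays of a group did not overlap those of the other for 9139 genes (51.7%), and for every gene called. The changes were mostly modest. Of all genes, 90 (0.509%) were called and at least 2-fold higher and 181 (1.02%) at least 2-fold lower. Falls thus outnumbered rises more clearly past 2-fold than over all calls. At 1.5 log2 or more the numbers were closer, with 24 rises and 31 falls. The smallest change called was 0.30 log2, against a median difference over all genes of 0.03 log2 and a median absolute difference of 0.17.

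Calls were made mainly among bright genes. With genes sorted by mean signal into 5 equal groups, 1.24% were called in the dimmest, 37 higher and 7 lower, and 22.6% in the brightest, 334 higher and 466 lower. Few genes near background were called. The count was 1179 without the first control array, 1557 without the second, 1039 without the first KDM4B hairpin array and 1095 without the second, and 826 when the 4 arrays were fitted alone, with 2 residual degrees of freedom. With the other Rh30 arrays grouped by their sample names instead of their titles, 725 genes were called, 250 higher and 475 lower. That grouping leaves every hairpin difference as it is and changes the estimate of the spread. By title, the siRNA arrays had medians of 6.72 to 6.75 over all probe sets. The DMSO and QC6352 arrays of Rh30 had 6.95 to 6.99. The sample names put arrays of both ranges into 1 group, at 6.72, 6.97 and 6.99. Of the genes named by the selection rule or added to it and called, 205 in all, 135 kept their call whichever hairpin array was left out. Calls that did not are marked where the gene is named. Counts of list members moved as well. Beside many of them the range over the 4 fits that each leave out a hairpin array is given. List counts compare with 5.26% higher and 6.31% lower over all genes, and were not matched for signal.

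**Figure D2:**
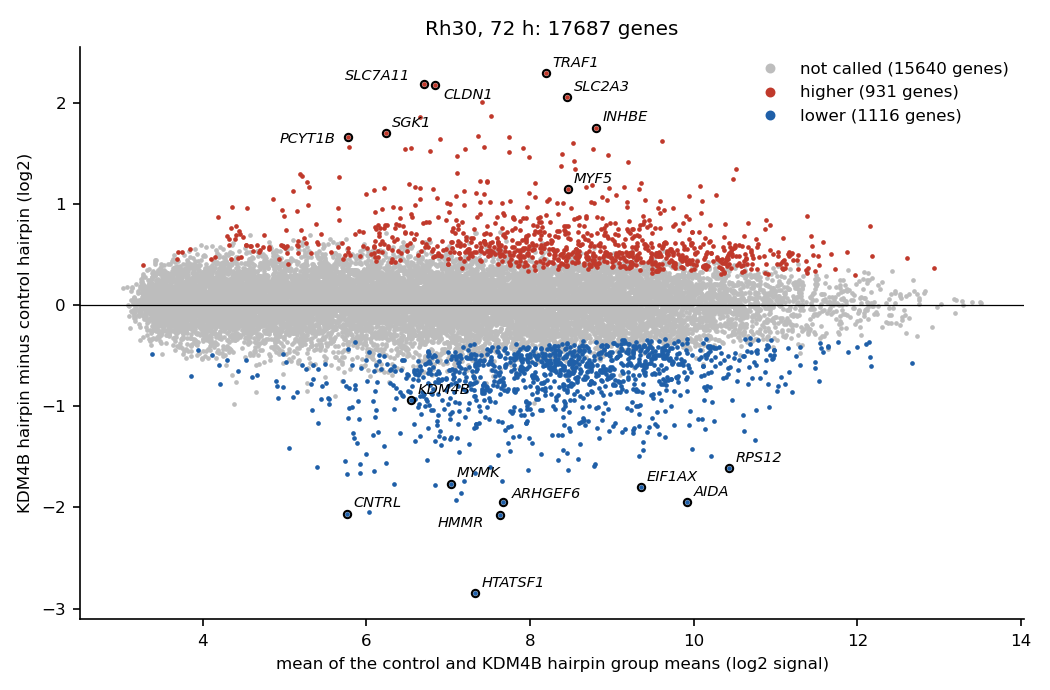
Each point is a gene; the x axis is the mean of the control and KDM4B hairpin group means (log2 signal) and the y axis the KDM4B hairpin minus the control hairpin (log2). The 931 genes called higher are red, the 1116 called lower are blue and the 15640 not called are grey; HTATSF1 stands apart at the bottom, and few dim genes are called.

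The largest rise was that of TRAF1, an adaptor of TNF receptors. It read 7.12 and 6.98 in the controls and 9.33 and 9.37 under the KDM4B hairpin, a rise of 2.30 ± 0.16 log2 or 4.92-fold (adjusted p = 8.18e-08 in limma). SLC7A11, the cystine importer that feeds glutathione synthesis, read 5.43 and 5.80 against 7.90 and 7.70, a rise of 2.19 ± 0.24. CLDN1, a tight junction claudin, read 5.58 and 5.90 against 7.84 and 8.01, a rise of 2.18 ± 0.16. In each of these the 2 pairs of arrays lie far apart relative to their own spread.

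SLC2A3, a high-affinity glucose transporter, read 7.11 and 7.74 against 9.44 and 9.54, a rise of 2.06 ± 0.17. DKK1, a secreted inhibitor of Wnt receptors, read 6.31 and 6.88 against 8.46 and 8.47, a rise of 1.87 ± 0.25. The other rises among the 12 were GLIPR1 (2.01 ± 0.26), GCNT2 (1.86 ± 0.24), INHBE (1.76 ± 0.21), SGK1 (1.70 ± 0.26), GSG1 (1.68 ± 0.22), PCYT1B (1.67 ± 0.25) and TNFRSF9 (1.67 ± 0.21). GCNT2 adds branches to cell-surface glycans, INHBE encodes an activin subunit, SGK1 is a growth factor and glucocorticoid responsive kinase, PCYT1B makes CDP-choline for phosphatidylcholine, and TNFRSF9 is a costimulatory TNF receptor.

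The largest fall was that of HTATSF1, an RNA-binding protein of the U2 splicing complex. It read 8.78 and 8.73 in the controls and 6.07 and 5.75 under the hairpin, a fall of −2.85 ± 0.12 log2 or 7.19-fold (adjusted p = 1.15e-10 in limma). The 10 other Rh30 arrays read 8.68 to 9.37 for it, close to the controls. HMMR, a spindle-associated hyaluronan receptor, read 8.70 and 8.65 against 6.60 in both hairpin arrays, a change of −2.07 ± 0.15. CNTRL, a centrosome protein needed for abscission, read 7.47 and 6.13 against 4.73 and 4.75, a change of −2.06 ± 0.39 with controls that differ widely from each other.

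AIDA, an axin-interacting protein, read 11.07 and 10.73 against 8.96 and 8.94 (−1.95 ± 0.14). EIF1AX, a translation initiation factor that aids start codon scanning, read 10.43 and 10.07 against 8.45 and 8.46 (−1.80 ± 0.15). In both genes the KDM4B hairpin arrays are close to each other and well below the controls. The other falls among the 12 were AZI2 (−2.05 ± 0.22), an adaptor of the TBK1 kinase, ARHGEF6 (−1.95 ± 0.13), an exchange factor for Rac, COX17 (−1.93 ± 0.16), the copper chaperone of cytochrome oxidase, GTF2E2 (−1.86 ± 0.18), a TFIIE subunit, UQCRB (−1.78 ± 0.21), a complex III subunit, GTF3C6 (−1.77 ± 0.22), a TFIIIC subunit, and MYMK (−1.76 ± 0.20), the myoblast fusion protein myomaker.

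The range of the 10 other Rh30 arrays was used to place both pairs. That range includes the 4 siRNA arrays, whose medians over all probe sets were 6.72 to 6.75, below the 6.95 to 6.99 of the other Rh30 arrays, and normalization between the experiments is not stated. Both KDM4B hairpin arrays lay outside that range for 8 of the 12 largest rises and 11 of the 12 largest falls, and both control arrays for 1 and 0. Over all genes the KDM4B pair lay outside for 2432 (13.8%) and the control pair for 485 (2.74%), and over the 2047 genes called for 1088 and 106.

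**Figure D3:**
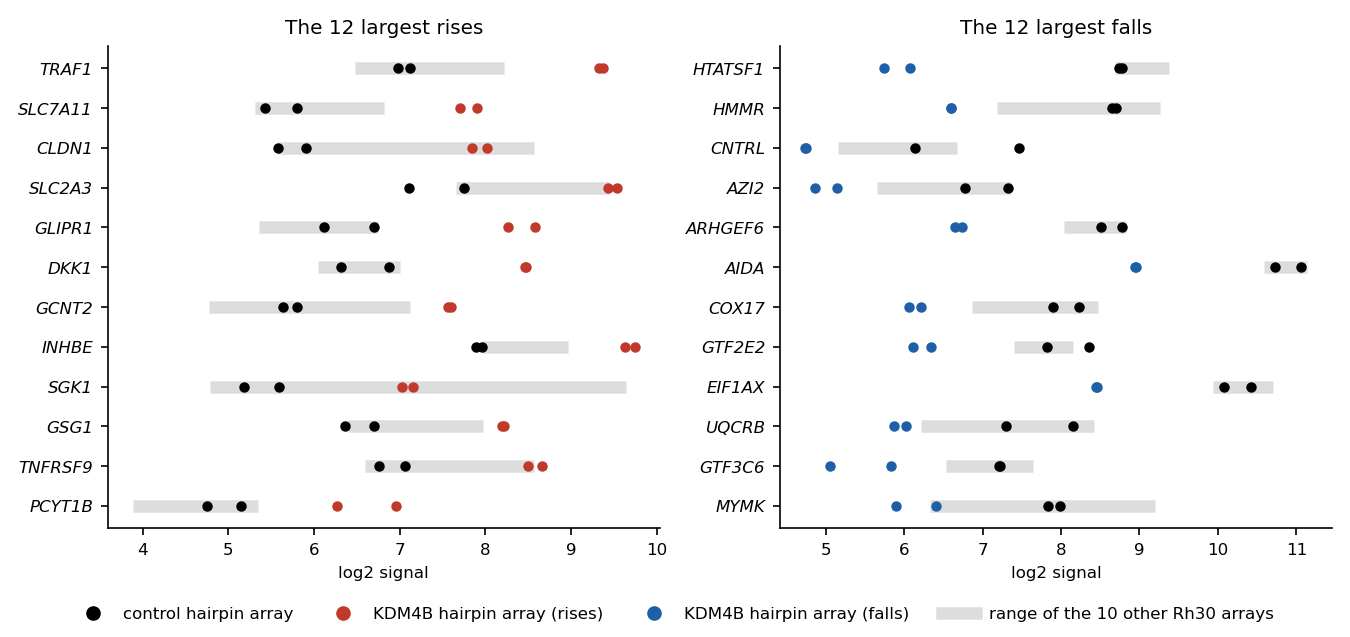
Log2 signal (x axis) of the 12 largest rises (left) and 12 largest falls (right) under the KDM4B hairpin; black points are the 2 control hairpin arrays, coloured points the 2 KDM4B hairpin arrays, and grey bars the range of the 10 other Rh30 arrays. The coloured points lie outside the grey bar for 8 of the rises and 11 of the falls.

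Of 19 other histone demethylases measured, 1 rose (5.26%, as over all genes) and 4 fell (21.1%, beside 6.31% of all genes), and 2 to 4 fell with a hairpin array left out. PHF8, a JmjC demethylase with activity on H3K9 dimethylation, read 7.52 and 8.04 in the controls and 6.71 and 7.06 under the KDM4B hairpin (−0.90 ± 0.16, adjusted p = 0.00109 in limma). KDM5A, an H3K4 demethylase, changed by −0.62 ± 0.11, and KDM1B, a flavin-dependent H3K4 demethylase, by −0.64 ± 0.15, the latter a call lost without the second control array (adjusted p = 0.128) or the first KDM4B hairpin array (adjusted p = 0.0957). Of 17 writers and readers of H3K9 methylation 1 fell, TASOR, a subunit of the silencing complex HUSH, with 9.31 and 8.72 against 7.74 and 7.92 (−1.18 ± 0.19). None of 6 H3K36 methyltransferases was called. The smallest p there was that of SETD2, with a difference of −0.40 ± 0.22 log2 (adjusted p = 0.302).

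Replication-dependent core histone genes were lower. Their transcripts are made in S phase and most lack a poly(A) tail, and their products package new DNA. Called lower were 6 of 14 H2A genes, 4 of 17 H2B, 3 of 9 H3 and 4 of 15 H4 genes, or 42.9%, 23.5%, 33.3% and 26.7% beside 6.31% of all genes, and none was called higher. The median differences of the classes were −0.44, −0.45, −0.43 and −0.34 log2, against 0.03 over all genes. H4C1 read 7.86 in both controls and 6.42 and 6.40 under the hairpin (−1.45 ± 0.24, adjusted p = 0.000442 in limma). H2AC15 read 6.93 and 6.69 against 5.76 and 6.05 (−0.91 ± 0.17). H2BC7 read 7.77 and 7.93 against 6.89 and 7.07 (−0.87 ± 0.13).

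The coding sequences of histone genes are near-identical within a class, so signals of these probe sets may be shared between genes. The calls were also sensitive to the arrays used. With 1 hairpin array left out at a time, 3 to 4 H2A, 1 to 5 H2B, 0 to 3 H3 and 3 H4 genes were called lower, and with groups taken from the sample names, 0 in each class. H3-3B, a replication-independent H3.3 gene, rose by 0.58 ± 0.10, from 11.10 and 11.21 to 11.70 and 11.77. Of 10 replication-independent variants 2 rose (20%, beside 5.26% of all genes) and none fell, with a median of 0.00. CHAF1B, a subunit of the chaperone that deposits new H3 and H4, changed by −0.59 ± 0.13, a call lost without the second control array (adjusted p = 0.0898) or the first KDM4B hairpin array (adjusted p = 0.0622).

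Many genes of mitosis fell. Called lower were 10 of 24 kinesins and spindle proteins (41.7%), 12 of 34 kinetochore and checkpoint proteins (35.3%), 10 of 21 cohesin and condensin genes (47.6%) and 9 of 29 centrosome genes (31.0%), beside 6.31% of all genes, and none was called higher. The medians of the 4 lists were −0.46, −0.38, −0.41 and −0.33 log2. Their median control signals were 9.77, 8.83, 9.25 and 7.92 log2. Bright genes were called more often, and 466 of the 3538 brightest and 396 of the next 3537 genes fell. With groups by sample name 9, 9, 3 and 7 members were called lower. With any 1 hairpin array left out, 7 to 10, 8 to 11, 4 to 10 and 7 to 9 members were called lower. The lowest of these, 4 cohesin and condensin genes, differs from the 10 of the full fit by over 1.5 times.

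Beside HMMR, KIF15, a spindle motor, read 8.75 and 8.57 in the controls and 7.60 and 7.65 under the KDM4B hairpin (−1.04 ± 0.14). KIF14, a motor of cytokinesis, read 8.54 and 9.01 against 8.01 and 7.72 (−0.91 ± 0.19), a call lost without the second control array (adjusted p = 0.0618) or the second KDM4B hairpin array (adjusted p = 0.0577). NDC80, the microtubule-binding core of the kinetochore, read 9.93 and 9.81 against 8.64 in both hairpin arrays (−1.23 ± 0.14). Its partners KNL1 (−1.29 ± 0.18) and DSN1 (−1.06 ± 0.11) fell by similar amounts.

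STAG2, the cohesin subunit that is often mutated in Ewing sarcoma, read 8.33 and 8.02 against 7.23 and 6.83 (−1.15 ± 0.22), its paralog STAG1 changed by −0.82 ± 0.16, and the condensin subunit NCAPG by −1.05 ± 0.12. The centrosome genes CEP290 and CEP63 changed by −1.54 ± 0.16 and −1.36 ± 0.15. The cyclins, mitotic kinases and APC/C subunits were split, with 5 of 38 lower and 2 higher and a median of −0.15, and 2 to 4 lower and 1 to 2 higher with a hairpin array left out. The falls were 13.2% and the rises 5.26% of that list, beside 6.31% and 5.26% of all genes. TOP2A, the topoisomerase that separates sister chromatids, read 11.27 and 11.20 against 10.04 and 9.93 (−1.24 ± 0.12). CDC23, an APC/C subunit, rose by 0.61 ± 0.11, and WEE1, the kinase that holds CDK1 inactive, by 0.59 ± 0.14, a call lost without the second control array (adjusted p = 0.106) or the first KDM4B hairpin array (adjusted p = 0.0934).

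Promoters of late cell cycle genes often hold the cell cycle genes homology region, whose core is TTTGAA and which is bound by the DREAM and MYB-MuvB complexes. The promoter windows of 4 mitotic genes called lower are shown because they hold that core close to the start site. Sequences are those of RefSeq on GRCh38.p14, 5′ to 3′ in the direction of transcription, from 250 bases before to 30 bases after the annotated start. Capitals mark TTTGAA on either strand. The windows are HMMR at chr5:163460382-163460661 on the plus strand, KIF14 at chr1:200620722-200621001 on the minus strand, KIF15 at chr3:44761544-44761823 on the plus strand and NDC80 at chr18:2571307-2571586 on the plus strand.
HMMR: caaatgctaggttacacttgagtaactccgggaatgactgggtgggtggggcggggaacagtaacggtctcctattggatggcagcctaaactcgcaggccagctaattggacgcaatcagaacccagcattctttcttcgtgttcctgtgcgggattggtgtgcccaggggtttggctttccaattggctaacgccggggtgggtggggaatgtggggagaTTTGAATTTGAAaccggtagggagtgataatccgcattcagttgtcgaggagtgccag
KIF14: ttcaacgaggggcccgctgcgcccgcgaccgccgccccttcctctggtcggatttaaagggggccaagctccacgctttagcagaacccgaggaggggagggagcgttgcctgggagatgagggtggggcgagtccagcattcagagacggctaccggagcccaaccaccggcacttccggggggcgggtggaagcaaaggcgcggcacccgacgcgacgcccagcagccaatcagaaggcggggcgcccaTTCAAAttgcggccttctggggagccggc
KIF15: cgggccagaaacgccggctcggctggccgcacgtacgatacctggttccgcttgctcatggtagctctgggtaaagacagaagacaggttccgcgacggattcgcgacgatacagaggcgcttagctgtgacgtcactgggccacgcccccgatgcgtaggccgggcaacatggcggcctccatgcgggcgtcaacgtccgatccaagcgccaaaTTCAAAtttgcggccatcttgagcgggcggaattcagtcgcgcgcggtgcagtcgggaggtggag
NDC80: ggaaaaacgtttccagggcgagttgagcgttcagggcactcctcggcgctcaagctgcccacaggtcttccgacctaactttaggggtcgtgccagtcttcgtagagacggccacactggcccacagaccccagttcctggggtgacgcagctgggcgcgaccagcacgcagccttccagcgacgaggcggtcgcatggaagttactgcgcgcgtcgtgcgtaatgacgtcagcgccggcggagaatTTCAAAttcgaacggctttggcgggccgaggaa
The core occurs 2 times in the HMMR window, with first bases at −28 and −22 from the start, and 1 time in each of the others, at 2, −35 and −3.

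Of the 17687 genes tested, 14250 have a RefSeq promoter window of 300 bases, 250 before and 50 after the start. TTTGAA on either strand was in 12% of them. Among the listed genes with a window it was in 17 of 23 kinesin and spindle genes, 13 of 28 kinetochore genes, 16 of 32 cyclin, kinase and APC/C genes and 7 of 18 cohesin and condensin genes, but in 1 of 45 replication genes. The share was 13.4% over all genes called lower and 10.4% over all called higher, near the share of all promoters. CCAAT, another element of cell cycle and histone promoters, was in 36.4% of all windows and in all 13 H2A, all 17 H2B and all 8 H3 windows, but in 3 of 13 H4 windows, although H4 genes were called lower too. These matches describe letters in a window and are not measured binding sites.

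Genes of DNA replication also fell in part. Of 53 origin and fork genes 15 fell (28.3%) and 1 rose, with a median of −0.20, and 7 to 10 fell when a hairpin array was left out. USP1, a deubiquitinase of the replication clamp, read 10.47 and 9.96 in the controls and 9.26 and 9.19 under the KDM4B hairpin (−0.99 ± 0.16, adjusted p = 0.000393 in limma). CLSPN, the claspin mediator of the replication checkpoint, changed by −0.94 ± 0.13 and CCNE2, cyclin E2, by −0.89 ± 0.16. In nucleotide synthesis 4 of 18 fell (22.2%, beside 6.31% of all genes) and 1 rose (5.56%, beside 5.26%). The guanine nucleotide enzymes IMPDH2 (−0.83 ± 0.10) and GMPS (−0.75 ± 0.11) fell, and PPAT, the first step of purine synthesis, rose by 0.68 ± 0.12. Falls were 11.1% of the homologous recombination and Fanconi list, beside 6.31% of all genes. Of 27 homologous recombination and Fanconi genes 3 fell and none rose, with a median of −0.20 and 0 to 2 falls with a hairpin array left out.

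The genes that rose together most often were targets of ATF4, the transcription factor of the integrated stress response, which turns on amino acid uptake and synthesis when translation initiation is held back. Of 36 measured, 17 rose (47.2%, beside 5.26% of all genes) and 1 fell, the median was 0.40 log2, and 33 had a positive difference. With any 1 hairpin array left out, 12 to 16 were called higher, with the 4 arrays alone 12, and with groups by sample name 5. After SLC7A11, TRIB3, a pseudokinase that feeds back on ATF4, read 6.74 and 6.99 in the controls and 8.16 and 8.02 under the KDM4B hairpin (1.22 ± 0.15, adjusted p = 1.79e-05 in limma). ATF3, a stress-induced factor of the same family, read 6.76 and 7.10 against 7.94 and 7.73 (0.91 ± 0.15).

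The cytosolic tRNA synthetases, which ATF4 also regulates, did not move as a group. Of 16 measured, 2 rose (12.5%) and 3 fell (18.8%), beside 5.26% and 6.31% of all genes, with a median of 0.03. WARS1 rose by 0.85 ± 0.12, whereas LARS1 changed by −0.78 ± 0.12 and KARS1 by −0.71 ± 0.12. The chaperones and sensors of the endoplasmic reticulum did not rise as a group either, with 1 of 21 higher (4.76%), 3 lower (14.3%) and a median of −0.03. DNAJB9 rose by 0.78 ± 0.17, a call lost without the first control array (adjusted p = 0.0619). DNAJC3 changed by −0.73 ± 0.15, a call lost without the first control array (adjusted p = 0.0511) or the first KDM4B hairpin array (adjusted p = 0.0535).

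ATF4 binds with C/EBP partners to an element with the core TGATGNAA. It was in 2.52% of all promoter windows on either strand, in 6 of 29 windows of the ATF4 list and in 4 of the 16 with a window that were called higher, and it was in 5 of 14 windows of the tRNA synthetases. The first listed window of ATF3, at chr1:212565157-212565436 on the plus strand, is shown as the example among the genes named here. Its match, in capitals, starts 191 bases before the start site of that window. Other start sites of ATF3 were not examined.
ATF3: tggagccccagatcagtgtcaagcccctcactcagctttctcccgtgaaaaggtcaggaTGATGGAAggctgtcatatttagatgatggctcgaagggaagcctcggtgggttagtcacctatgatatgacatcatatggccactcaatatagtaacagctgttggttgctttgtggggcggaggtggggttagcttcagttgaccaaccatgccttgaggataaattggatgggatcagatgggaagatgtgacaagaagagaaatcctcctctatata
The element was in 2.72% of the windows of all genes called higher, near the share of all windows.

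Of 20 targets of NRF2, the factor of the antioxidant response, 8 rose (40%, beside 5.26% of all genes) and none fell, with a median of 0.38 log2. With a hairpin array left out 3 to 5 rose, with groups by sample name 3 and with the 4 arrays alone 2. SLC7A11 is on this list too. TXNRD1, thioredoxin reductase, read 8.95 and 8.92 in the controls and 9.80 and 9.84 under the KDM4B hairpin (0.89 ± 0.10), and NQO1, a quinone reductase, read 6.68 and 7.15 against 7.85 and 7.73 (0.87 ± 0.16). Of the heat shock list 20% were called higher and 13.3% lower, beside 5.26% and 6.31% of all genes. Heat shock genes were mixed, with 3 of 15 higher and 2 lower, and 0 to 2 lower with a hairpin array left out. HSPB8, a small heat shock protein of selective autophagy, rose by 1.02 ± 0.14, and HSP90AA1 read 11.69 and 11.20 against 10.66 and 10.53 (−0.85 ± 0.16), a call lost without the first control array (adjusted p = 0.0516).

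Targets of p53 went both ways, 5 of 22 higher and 5 lower, with a median of −0.01, and 2 to 3 higher and 3 to 4 lower with a hairpin array left out. The 3 largest changes were falls of DNA repair and nucleotide genes, RRM2B (7.07 and 7.47 against 5.97 and 5.88, −1.34 ± 0.17), DDB2 (−0.83 ± 0.16) and POLK (−0.74 ± 0.15). The 5 rises and 5 falls were each 22.7% of the p53 list, beside 5.26% and 6.31% of all genes. Of 22 BCL2 family and caspase genes 2 rose (9.09%) and 1 fell (4.55%). BAK1, a pore-forming effector of apoptosis, read 8.05 and 8.42 in the controls and 9.28 and 9.23 under the KDM4B hairpin (1.02 ± 0.16). APAF1, the scaffold of the apoptosome, changed by −1.24 ± 0.34, a call lost without any 1 of the 4 arrays (adjusted p = 0.0520 to 0.151). CASP8 rose by 0.83 ± 0.19 and lost its call without the first control array (adjusted p = 0.0642) or the first KDM4B hairpin array (adjusted p = 0.0513).

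In signalling, NF-kB subunits and targets rose in 7 of 25 cases with 1 lower, a median of 0.26, and 3 to 5 rises with a hairpin array left out. TRAF1 led them. LIF, a cytokine of the interleukin-6 family, read 7.80 and 7.58 against 8.31 and 8.64 (0.78 ± 0.15), and BIRC2, an inhibitor of the noncanonical branch, changed by −0.71 ± 0.16, a call lost without the first control array (adjusted p = 0.0566) or the second KDM4B hairpin array (adjusted p = 0.0645). Of 16 TNF receptors on the list 2 rose, among them TNFRSF12A, the TWEAK receptor (0.79 ± 0.17), whose call was lost without the first control array (adjusted p = 0.0701). The 2 rises were 12.5% of the TNF receptor list, beside 5.26% of all genes. A match to the consensus NF-kB site, searched on both strands, was in 0.526% of all windows. It was in 8 of 20 of the NF-kB list, of which 1 was called higher, TNFAIP3.

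Responses that small RNAs can raise were looked for. Both groups carry a hairpin, so a response common to both would not show in this comparison. Of 31 interferon genes and double-stranded RNA sensors 1 rose, IFIT3, from 5.75 and 6.36 to 6.85 and 6.82 (0.78 ± 0.17), a call lost without the first control array (adjusted p = 0.128). The share of the list that rose was 3.23%, beside 5.26% of all genes, and the median of the list was 0.13 log2. Of 12 small RNA machinery genes 2 rose (16.7%) and 1 fell (8.33%), all TNRC6 paralogs, which are the Argonaute partners in silencing. TNRC6A read 10.36 and 10.16 against 11.10 and 11.05 (0.81 ± 0.11). TNRC6B rose by 0.48 ± 0.12 and TNRC6C changed by −0.55 ± 0.11, and both calls were lost without the first KDM4B hairpin array (adjusted p = 0.0793 and 0.0882), that of TNRC6B also without the first control array (adjusted p = 0.114) or the second KDM4B hairpin array (adjusted p = 0.0757).

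MAPK feedback and immediate early genes rose in 10 of 30 cases and fell in 2, with a median of 0.30 and 5 to 10 rises with a hairpin array left out. The rises were 33.3% and the falls 6.67% of that list, beside 5.26% and 6.31% of all genes. With groups by sample name 3 of its members rose. SPRY1, an inhibitor of receptor tyrosine kinase signalling, read 8.64 and 8.97 in the controls and 9.57 and 9.56 under the KDM4B hairpin (0.76 ± 0.13), and DUSP1, a MAP kinase phosphatase, rose by 0.75 ± 0.13. Of 18 genes of the insulin-like growth factor axis, a driver of rhabdomyosarcoma growth, 8 rose (44.4%, beside 5.26% of all genes) and none fell, with a median of 0.18. With a hairpin array left out 3 to 6 rose, with groups by sample name none and with the 4 arrays alone 1. IGF2BP2, an RNA-binding protein of the IGF2 message, rose by 0.52 ± 0.10 and the binding protein IGFBP6 by 0.87 ± 0.20, a call lost without the second KDM4B hairpin array (adjusted p = 0.0776). MYC read 9.52 and 9.58 against 10.16 and 10.18 (0.62 ± 0.13).

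Developmental pathways had list medians of 0.07 (Wnt), 0.08 (TGF-beta) and 0.06 (Notch), beside 0.03 log2 over all genes. Whether they shifted as groups was not tested. Rises and falls were 10.5% and 7.89% of Wnt genes and 8.33% and 0 of TGF-beta genes, beside 5.26% and 6.31% of all genes. Of 38 Wnt genes 4 rose and 3 fell, with a median of 0.07, and 2 to 4 rose and 2 to 3 fell with a hairpin array left out. After DKK1, the receptor FZD6 read 7.71 and 7.94 against 9.15 and 9.35 (1.43 ± 0.21), and the secreted antagonist SFRP1 read 6.32 and 6.68 against 5.0 and 5.39 (−1.31 ± 0.17). Of 36 TGF-beta, BMP and activin genes 3 rose, INHBE among them, and none fell, with 1 to 4 rises when a hairpin array was left out. Of 20 Notch genes 2 rose (10%) and 1 fell (5%), and of 13 EGF ligands and ERBB receptors 1 fell (7.69%).

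In most lists of the cell surface, matrix and cytoskeleton more members rose than fell. Rises were 33.3% of YAP and TEAD targets, 29.2% of collagen processing genes and 26.1% of actin genes, beside 5.26% of all genes. Of 21 YAP and TEAD targets 7 rose and 1 fell, with a median of 0.14 and 5 to 7 rises with a hairpin array left out. NT5E, the ecto-enzyme CD73, read 8.86 and 8.62 in the controls and 9.95 and 9.97 under the KDM4B hairpin (1.21 ± 0.19, adjusted p = 0.000299 in limma). F3, tissue factor, rose by 1.02 ± 0.16 and CCN1, a matricellular protein, by 0.88 ± 0.10. Collagen chains were mostly not called, 2 of 41 higher (4.88%, near the share of all genes). The processing and crosslinking genes rose in 7 of 24 cases with 1 lower, and in 4 to 7 with a hairpin array left out. LOX, lysyl oxidase, read 7.15 and 7.35 against 8.79 and 8.65 (1.47 ± 0.22), and the collagen chaperone SERPINH1 read 10.78 and 11.10 against 11.86 and 11.79 (0.88 ± 0.15).

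Of 29 claudins and tight junction proteins 3 rose (10.3%, beside 5.26% of all genes) and none fell. CLDN4 read 7.56 and 7.72 against 9.10 and 9.18 (1.5 ± 0.17), beside CLDN1 above. Of 25 integrins 1 rose (4%) and 2 fell (8%), near the 5.26% and 6.31% of all genes. ITGB8, a subunit that activates latent TGF-beta, read 7.57 and 7.43 against 6.16 and 6.17 (−1.34 ± 0.15), and ITGB6, with the same known role, 6.41 and 6.26 against 4.99 and 5.66 (−1.01 ± 0.18). Of 23 actin and SRF target genes 6 rose and 1 fell, with 3 to 4 rises when a hairpin array was left out. CNN1, a calponin of smooth muscle, read 6.25 and 6.63 against 7.74 and 8.22 (1.54 ± 0.16), whereas LIMA1, an actin-bundling protein, read 10.78 and 10.72 against 9.60 and 9.46 (−1.22 ± 0.11).

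The muscle program did not move as a whole. Of 23 myogenic regulators 1 rose (4.35%) and 2 fell (8.7%), with a median of −0.06, beside 5.26% and 6.31% of all genes. MYF5, the earliest of the myogenic bHLH factors, read 7.71 and 8.06 in the controls and 8.99 and 9.08 under the KDM4B hairpin, a rise of 1.15 ± 0.18 (adjusted p = 0.000264 in limma). MYOD1, the related determination factor, read 10.22 and 10.32 against 9.40 and 9.71, a change of −0.71 ± 0.15 (adjusted p = 0.00347), a call lost without the first KDM4B hairpin array (adjusted p = 0.0771). SOX8, a factor of muscle progenitors, changed by −0.76 ± 0.12. Thus 2 bHLH factors of determination were called in opposite directions.

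Of 39 sarcomere and contractile genes 3 fell (7.69%, beside 6.31% of all genes) and none rose, with a median of −0.04. TPM1, a tropomyosin, read 8.79 and 8.85 against 7.80 and 7.78 (−1.02 ± 0.12), and MYL11, a fast skeletal myosin light chain, 7.58 and 7.83 against 6.64 and 6.42 (−1.18 ± 0.16). Of 18 fusion and adhesion genes 4 rose (22.2%) and 2 fell (11.1%), MYMK falling most, and the rises numbered 0 without the first control array, 4 without the second, 0 without the first KDM4B hairpin array and 1 without the second. It read 7.84 and 7.99 against 5.90 and 6.40. CHRNG, of the neuromuscular list, read 7.47 and 7.59 against 6.48 and 5.99 (−1.29 ± 0.15), below the brightest background probe set in all 4 arrays.

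Of 25 known targets of PAX3-FOXO1, 7 fell (28.0%, beside 6.31% of all genes) and 2 rose, with a median of −0.07. With a hairpin array left out 5 to 6 fell, with groups by sample name 1 and with the 4 arrays alone 4. RASSF4, an inhibitor of Hippo signalling in these tumours, read 10.65 and 10.69 in the controls and 9.54 and 9.55 under the KDM4B hairpin (−1.13 ± 0.13, adjusted p = 1.33e-05 in limma). ASS1, argininosuccinate synthase, changed by −0.78 ± 0.15. SOX8 and MYOD1 are on this list as well as among the myogenic regulators. FGFR4, a receptor and a marker of the tumour, read 11.12 and 11.29 against 10.54 and 10.55 (−0.66 ± 0.11). PAX3, for which it was not examined whether the probe set covers the fusion transcript, read 8.54 and 8.61 against 8.57 and 8.57 (−0.01 ± 0.12, adjusted p = 0.988).

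In metabolism, glucose transporters and glycolytic genes rose in 6 of 27 cases and fell in 1, with a median of 0.17 and 2 to 6 rises with a hairpin array left out. The rises were 22.2% of that list, beside 5.26% of all genes. SLC2A14, a close duplicate of SLC2A3, rose by 1.62 ± 0.13, and signals of these paralogs may be shared between their probe sets. HK2, a hexokinase, rose by 0.70 ± 0.14, a call lost without the first control array (adjusted p = 0.0506). Sterol genes rose in 5 of 20 cases with none lower, and in 3 to 4 with a hairpin array left out, led by MSMO1, a C4-demethylation enzyme of cholesterol synthesis, which read 9.67 and 9.78 against 10.83 and 10.81 (1.09 ± 0.11). Of 13 fatty acid genes 4 rose and 1 fell, with 1 to 2 rises when a hairpin array was left out. The rises were 25% of the sterol list and 30.8% of the fatty acid list, beside 5.26% of all genes. FADS2, a desaturase, read 8.89 in both controls and 9.99 and 9.88 under the KDM4B hairpin (1.04 ± 0.12), whereas ACLY, which makes cytosolic acetyl-CoA, changed by −0.71 ± 0.10.

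Of 14 iron genes 4 rose, among them TFRC, the transferrin receptor, from 9.37 and 9.42 to 10.55 and 10.41 (1.08 ± 0.11), and FTL, the ferritin light chain, by 0.69 ± 0.13. Thus transcripts of an uptake and of a storage protein of iron rose. Of the lists that follow, rises were 23.5% of metallothioneins and zinc transporters and 16.7% of HIF targets. With groups by sample name they numbered 0 and 1. The 4 iron rises were 28.6% of the iron list, beside 5.26% of all genes. With a hairpin array left out 2 to 3 of the 14 rose. Of 25 lysosome and autophagy genes 6 rose (24%) and 1 fell, with 2 to 5 rises when a hairpin array was left out, including GABARAPL1 (0.96 ± 0.18) and SQSTM1 (0.61 ± 0.11). Of 34 metallothioneins and zinc transporters 8 rose and 1 fell, and 1 to 5 rose with a hairpin array left out. Of 18 HIF targets 3 rose, 0 to 2 with a hairpin array left out, and 1 fell, BNIP3L, a mitophagy receptor (−0.80 ± 0.12).

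Among mitochondrial genes the share that fell differed between complexes, beside 6.31% of all genes. Bright genes were called more often, and 466 of the 3538 brightest and 396 of the next 3537 genes fell. The median control signals were 11 log2 for ATP synthase, 9.31 for complex I and 8.76 for mitochondrial ribosomal genes. Fallen were 6 of 16 ATP synthase genes (37.5%, median −0.24), 7 of 31 complex I genes (22.6%, −0.07), 1 of 12 complex II and III genes (−0.12), 0 of 14 complex IV genes (0.00), 10 of 74 mitochondrial ribosomal proteins (−0.03) and 1 of 15 genes of the citric acid cycle (−0.02). None of these genes was called higher, and the shares in complexes II to IV and the cycle, 8.33%, 0 and 6.67%, lay near or below that of all genes. ATP5F1C, the gamma subunit of the rotor, read 10.84 and 10.80 in the controls and 9.67 and 9.69 under the KDM4B hairpin (−1.14 ± 0.11, adjusted p = 1.95e-06 in limma). MRPL51 read 11.24 and 11.31 against 10.16 and 10.32 (−1.03 ± 0.10), and NDUFB1 10.60 and 10.53 against 9.74 and 9.79 (−0.80 ± 0.12). With a hairpin array left out, 2 to 4 ATP synthase, 3 to 5 complex I and 4 to 6 mitochondrial ribosomal genes fell, and 2, 2 and 4 with groups by sample name.

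Large complexes of protein and RNA metabolism differed in the share of members called. Called were 4% of cytosolic ribosomal proteins and 22.2% of proteasome subunits, beside 11.6% of all genes. The shares were 16.4% of spliceosome and 22.7% of ribosome biogenesis genes, described below. Of 50 cytosolic ribosomal proteins 2 fell (4%, beside 6.31% of all genes) and none rose, with a median of −0.04. RPS12 read 11.36 and 11.12 in the controls and 9.51 and 9.75 under the KDM4B hairpin (−1.61 ± 0.12, adjusted p = 1.05e-07 in limma), beside RPS26 at −0.51 ± 0.10. Of 36 proteasome subunits 31 had a positive difference, 6 rose (16.7%) and 2 fell, with a median of 0.20. With a hairpin array left out 2 to 3 rose, and with the 4 arrays alone none, while 2 fell in each of these fits. PSMD1, a large subunit of the regulatory base, read 10.06 and 10.14 against 8.64 and 8.70 (−1.43 ± 0.10), and PSMA7, of the core ring, 10.58 and 10.56 against 9.73 and 9.74 (−0.84 ± 0.11).

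Of 73 spliceosome genes 3 rose and 9 fell, with a median of −0.03, and 0 to 2 rose and 5 to 7 fell with a hairpin array left out. The rises were 4.11% and the falls 12.3% of the spliceosome list, beside 5.26% and 6.31% of all genes. HTATSF1 stood far below the rest, and its neighbours in the U2 complex SF3B2 (9.09 and 9.27 against 7.97 and 8.07, −1.16 ± 0.12) and U2SURP (−0.96 ± 0.13) fell too. Ribosome biogenesis was split, with 2 of 22 higher (9.09%) and 3 lower (13.6%). NIP7 rose by 0.80 ± 0.12 and NOP58 changed by −0.55 ± 0.11. Of 482 numbered zinc finger genes 11 rose (2.28%) and 33 fell (6.85%), with a median of −0.03, near the background of all genes for falls, and 1 to 11 rose and 13 to 23 fell with a hairpin array left out. ZNF358 read 9.64 and 9.51 against 7.97 and 7.99 (−1.59 ± 0.11).

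**Figure D4:**
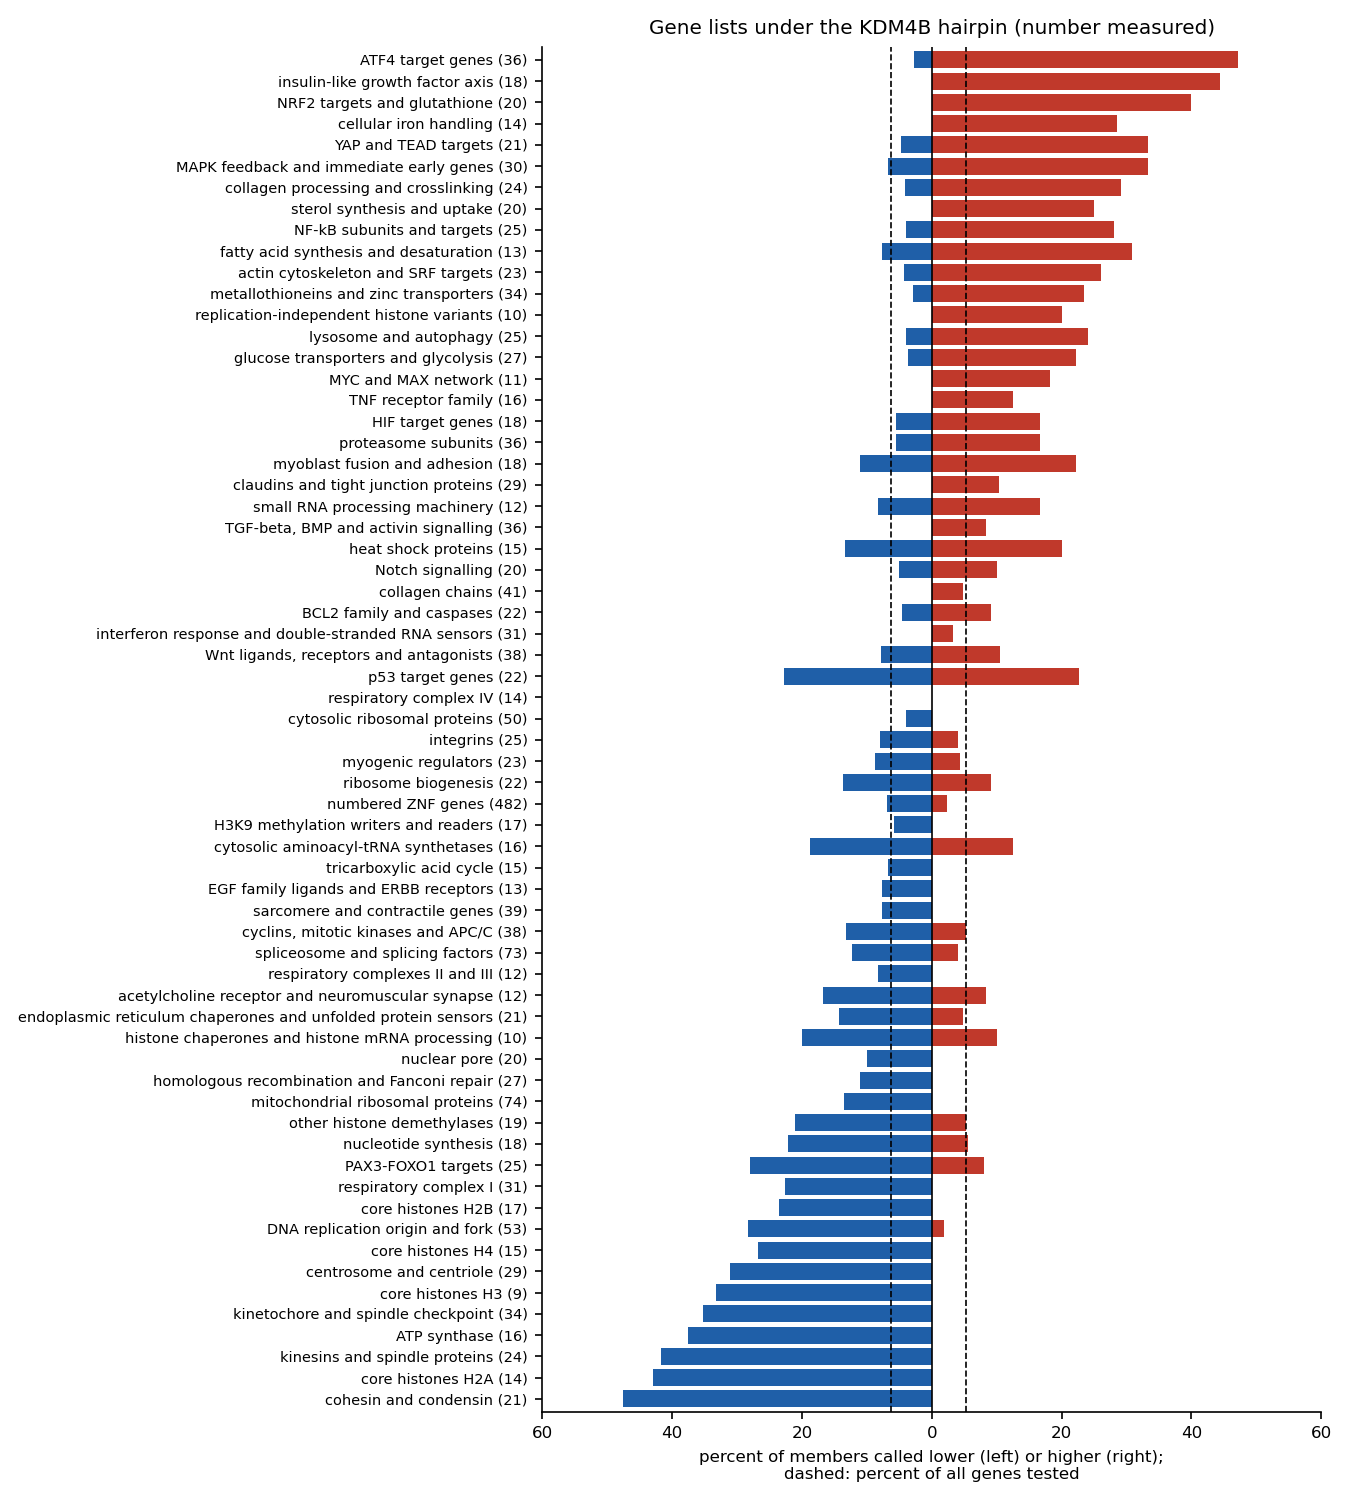
Percent of measured members (x axis) called lower (left, blue) or higher (right, red) under the KDM4B hairpin in 64 gene lists with at least 9 measured members, whose number stands in brackets; dashed lines mark 5.26% higher and 6.31% lower, the shares of all genes. ATF4 targets stand at the top with 47.2% higher, and cohesin and condensin at the bottom with 47.6% lower.

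Of the other cell types, only endothelial and neural lists had markers called. THY1, a fibroblast marker that was not called, was above background in all 4 arrays. None of 10 epithelial, 11 blood and 8 fibroblast markers was called, the smallest adjusted p values being 0.0825 for KRT18, 0.0725 for CD68 and 0.0933 for THY1. Of 10 endothelial markers TIE1 (0.65 ± 0.12) and ROBO4 (0.54 ± 0.15) were called higher, and of 7 neural markers SYP (0.72 ± 0.16). These were 20% and 14.3% of the 2 lists, beside 5.26% of all genes. The call for ROBO4 was lost without either control array or the first KDM4B hairpin array (adjusted p = 0.0642, 0.129 and 0.355), and that for SYP without the first KDM4B hairpin array (adjusted p = 0.0521). The summed log2 signals were 51.3 and 50.7 against 51.4 and 51.5 for epithelial, 56.1 and 53.8 against 56.6 and 56.4 for blood, and 59.8 and 58.1 against 60.7 and 59.7 for endothelial markers. EPCAM read 3.84 to 4.22, PTPRC 3.41 to 3.73 and KDR 3.94 to 4.14 in the 4 arrays, near the medians of the background probe sets, while KRT8 was above the brightest background probe set in 3 of the 4 arrays, COL1A2 in 3 and ROBO4 in 1. The part of these cell types in the changes above was not tested.

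The other comparisons show how far these changes are shared. They use other arrays as controls, so no array is shared with the hairpin comparison, but times differ, with 72 h for the RNAs and 48 h for QC6352. The 10 arrays with contradictory labels are the siRNA, DMSO and QC6352 arrays of Rh30. They were grouped by title, except that the title of 1 of the 2 KDM4C siRNA arrays names a hairpin, and its other labels, a KDM4C siRNA, were followed. KDM4C read 6.48 and 6.54 in the siRNA controls and 6.25 and 6.32 with the KDM4C siRNA, a difference of −0.23 ± 0.19 (adjusted p = 0.651 in limma), so a loss of the siRNA target was not called. KDM4C siRNA called 81 genes (0.458%), 0.266% of all genes upward and 0.192% downward. The rises shared with the KDM4B hairpin were 13, or 1.40% of the hairpin's rises, and the shared falls were 7, or 0.627% of its falls. QC6352 in Rh30 called 6427 genes (36.3%), 3517 higher (19.9%) and 2910 lower (16.5%). It raised 381 of the genes the hairpin raised (40.9% of the hairpin's rises and 10.8% of its own) and lowered 428 that the hairpin lowered (38.4% and 14.7%). It moved 187 of the hairpin's rises down (20.1%, beside 16.5% of all genes) and 236 of its falls up (21.1%, beside 19.9%).

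In Rh41, QC6352 called 3479 genes (19.7%), 10.9% of all genes higher and 8.8% lower, and shared 217 rises (23.3% of the hairpin's) and 176 falls (15.8%). Of the hairpin's rises 104 were lowered there (11.2%, beside 8.8% of all genes). Of its falls 174 were raised (15.6%, beside 10.9% of all genes), and the 15.8% lowered stand beside 8.8%. Across all 17687 genes, which are not independent replicates, the correlation of the hairpin difference was 0.18 by Pearson's and 0.13 by Spearman's coefficient with that of QC6352 in Rh30, 0.08 and 0.05 with that in Rh41 and 0.02 and 0.02 with that of the KDM4C siRNA.

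List medians are given side by side. The core histone medians were close under the hairpin and the KDM4C siRNA, with −0.44 and −0.36 for H2A, −0.45 and −0.35 for H2B and −0.43 and −0.45 for H3. No core histone gene passed in the difference between these effects, which carries the spread of both comparisons. That does not show the effects to be equal. Core histone H4 genes had medians of −0.34 under the hairpin, −2.24 with QC6352 in Rh30, −1.06 in Rh41 and −0.37 with the KDM4C siRNA. Spindle genes had −0.46, −0.09, −0.05 and −0.03, and ATF4 targets 0.40, 0.25, −0.13 and −0.01. The difference between the hairpin effect and the KDM4C siRNA effect passed the threshold for 11 of 36 ATF4 targets, all higher under the hairpin (2.04% of all genes), and for 7 of 24 spindle genes, all lower (4.46%). Against QC6352 in Rh30, 13 of 24 spindle genes were lower under the hairpin (13% of all genes) and 1 higher, and 11 of 15 H4 genes were higher (11.4% of all genes), with smaller negative medians.

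Tested gene by gene, the hairpin effect differed from that of the KDM4C siRNA for 1148 genes (6.49%), 360 higher and 788 lower. The most positive were TRAF1 (2.25), GLIPR1 (2.18), SLC7A11 (1.87), INHBE (1.84) and SLC2A3 (1.79), in log2 of the difference of effects, and the most negative HTATSF1 (−2.86), MYMK (−2.85), KAT2B (−2.15), RYR3 (−2.09) and UHMK1 (−2.08). MYMK changed by −1.76 under the hairpin and by 1.08 with the siRNA. KAT2B, a histone acetyltransferase, read 6.75 and 7.29 in the hairpin controls against 5.35 and 5.57, and RYR3, a calcium release channel, 6.35 and 6.04 against 4.72 and 4.48. With groups by sample name 140 genes differed, and with a single array left out 596 to 2180, the lowest without the second control siRNA array and the highest without the first KDM4C siRNA array.

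From the effect of QC6352 in Rh30 the hairpin effect differed for 4331 genes (24.5%), 2024 higher and 2307 lower, and with groups by sample name for 613. The most positive were TBCA (4.50), HS2ST1 (4.02), NEGR1 (3.96), SUPT3H (3.90) and SKA2 (3.79), and the most negative RFPL4AL1 (−3.34), HBEGF (−3.25), CD68 (−3.23), RND1 (−3.14) and RFPL4A (−2.98). Of these 10 genes 8 were not called under the hairpin, the exceptions being SUPT3H (1.07 ± 0.25) and RFPL4A (1.28 ± 0.26). The call for SUPT3H was lost without the first control array (adjusted p = 0.106) or the second KDM4B hairpin array (adjusted p = 0.0586). RFPL4A and RFPL4AL1 are near-identical copies, so their signals may be shared.

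Among the 24 genes that the hairpin moved most, 7 of the 12 rises were called higher with QC6352 in Rh30, 4 in Rh41 and 1 with the KDM4C siRNA, and 6, 1 and 0 of the 12 falls were called lower. CLDN1 rose by 2.18 under the hairpin, by 2.27 and 1.16 with QC6352 in Rh30 and Rh41 and by 0.90 with the KDM4C siRNA. HMMR changed by −2.07, −1.23, −1.60 and −0.02 in the same order. HTATSF1 changed by −2.85 under the hairpin and by 0.10, 0.11 and 0.01 elsewhere, SLC7A11 by 2.19 against −0.66, −0.59 and 0.31, and AIDA by −1.95 against 0.37, 0.33 and 0.03. The hairpin effect differed from that of QC6352 in Rh30 for 11 of the 12 rises and 10 of the 12 falls, and from that of the siRNA for 11 and 11.

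**Figure D5:**
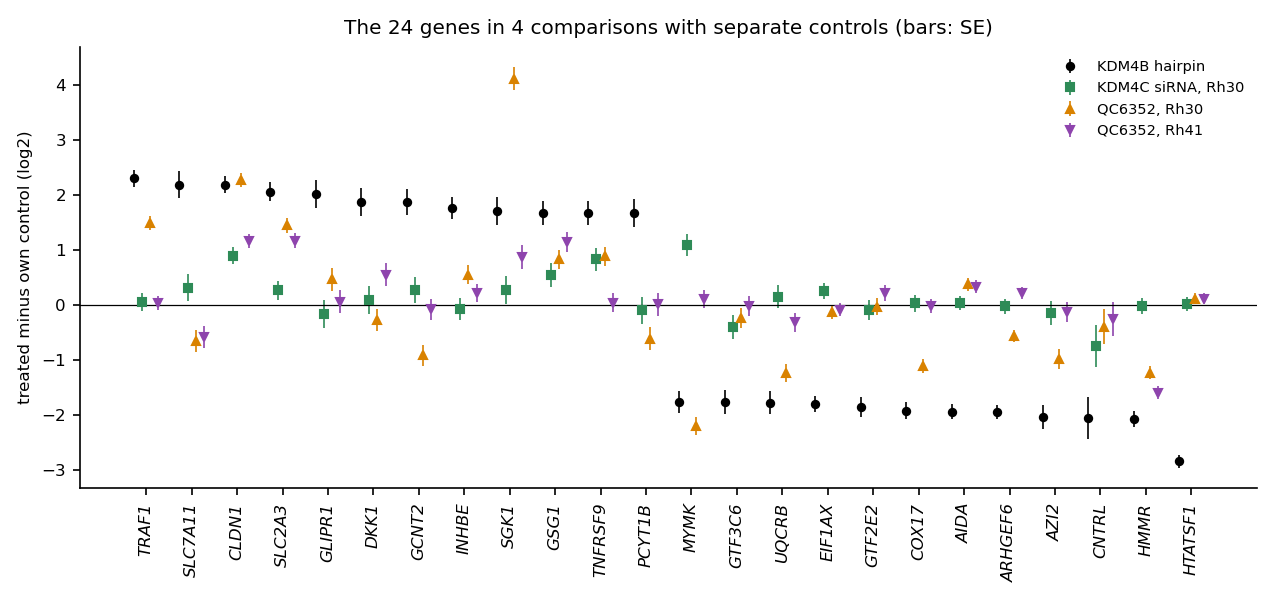
Difference of treated from own control (y axis, log2; bars are SE) for the 24 genes with the largest changes under the KDM4B hairpin (x axis), in the hairpin comparison (black), KDM4C siRNA in Rh30 (green), QC6352 in Rh30 (orange) and QC6352 in Rh41 (purple). Most green and purple points stand near 0 where the black points reach 1.67 or more upward and −1.76 or less downward; CLDN1 is higher in all 4 comparisons, and SGK1 is highest with QC6352 in Rh30, at 4.11.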

How the data were processed

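Gene expression was measured on 20 Affymetrix Clariom S arrays of RNA from rhabdomyosarcoma cell lines. The authors deposited log2 signals, and the submitters' processing notes name GCOS. The values were used as deposited, with version, background correction, summarization and normalization each "not given in the sources used here". Of 24351 probe sets, 17709 have 1 gene symbol in GEO's platform annotation and 6642 have none, and symbols were updated by gene identifier. For 22 genes with more than 1 probe set, that with the highest mean was kept, leaving 17687 genes.

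One limma fit (version 3.58.1, R 4.3.3; lmFit and eBayes) was made over all 20 arrays with 8 group means by title (for 1 KDM4C siRNA array, whose title names a hairpin, by its source name), without a trend, giving 12 residual degrees of freedom. Tests were two-sided, with Benjamini-Hochberg adjustment over the 17687 genes and a threshold of 0.05. Every adjusted p is from limma. Rises and falls in the text are genes past that threshold. The fit was also run on simulated data in which 200 of 17687 genes changed, fewer than the 2047 called here. There it recovered 86% of 2-fold and 41% of 1.5-fold changes with 10 false calls. That setting does not give the number of false calls in these data.

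Genes were named by rule: the KDM4 genes, the 12 largest rises and 12 largest falls whose arrays do not overlap, up to 3 called members of each of the 68 gene lists with the largest change, the member with the smallest p in a list without calls, and the 5 largest differences each way between comparisons. Uncharacterized loci and noncoding RNA genes, recognised by their symbols (LOC, LINC, MIR, SNOR, orf), could not be among the largest changes. FGFR4, PAX3, EPCAM, PTPRC and KDR were named from the marker lists, TNFAIP3 for its promoter match, and CD274, PDCD1LG2, RIC1, C5, EMP1, HMGA2 and MSRB3 as neighbours of other genes, all after their values were seen. The members and lists were chosen with earlier results of these data known. Lists are described by counts and medians and were not tested. The result of 1 list is not reported here. Promoter windows are those of RefSeq on GRCh38.p14, the first listed for a gene.

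Alternatives were quantile normalization, median centring, a filter on dim genes, a variance trend with robust fitting, array weights, fewer arrays, groups by sample name, the replicate number as a block, a fold threshold, every probe set, and leaving out each array in turn.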

Additional observations from a re-analysis of the deposited data

How the results depend on the processing

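Of the 2047 genes called under the KDM4B hairpin, counts stayed within 1.5 times under quantile normalization, median centring, the filter on dim genes, the variance trend, array weights, every probe set, and the fit without arrays of contradictory labels. They fell to 826 (295 higher, 531 lower) with the 4 arrays alone, to 725 (250 and 475) with groups by sample name, and to 135 (43 and 92) with a 1.5-fold threshold. Leaving out an array gave 1039 to 1557 calls, 397 to 737 higher and 596 to 820 lower. The KDM4B difference of −0.94 lost its call with the 4 arrays alone (adjusted p = 0.0555) and under the fold threshold (adjusted p = 1), and ranged from −1.22 to −0.66 without an array. KDM4A, not called, turned to −0.087 without the first control array and to −0.03 without the first KDM4B hairpin array, within a range of −0.087 to 0.12 without an array. The replicate numbers are not shown to pair the samples (correlation of deviations 0.0858). With the replicate block 1620 genes were called, of which 1545 are among the 2047, and 213 were higher in the difference from the KDM4C siRNA. That difference gave 551 higher genes with the dim filter and 556 with the variance trend against 360, 140 (36 higher, 104 lower) by sample name, and 300 (70 and 230) with its 4 groups alone. Without an array it gave 596 to 2180, 177 to 773 higher and 419 to 1407 lower. The difference from QC6352 in Rh30 gave 613 (115 and 498) by sample name, and 3439 to 4283 without an array, 1611 to 2039 higher and 1760 to 2249 lower. Beyond what fewer arrays or genes entail, the cause was not tested. Of the 205 called genes named, 51 were called in every alternative, 56 lost their call with the 4 arrays alone and 86 by sample name. Few dim genes were called, with 1.24% in the dimmest of the 5 groups by signal, and the reason was not tested. KDM4B read below the brightest background probe set and above the background median.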

Other observations

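Some of the larger changes lie side by side in the genome. Among 17660 pairs of neighbouring genes in the RefSeq annotation, 11 had both members called and changed at least 2-fold, 7 in the same direction and 4 in opposite directions. On chromosome 9, CD274, the immune checkpoint ligand PD-L1, read 6.03 and 5.99 in the controls and 7.20 and 7.16 under the KDM4B hairpin (1.17 ± 0.13 log2, adjusted p = 1.11e-05 in limma). Its neighbour PDCD1LG2, the related ligand PD-L2, read 8.24 and 8.17 against 9.69 in both hairpin arrays (1.49 ± 0.16), and the next gene, RIC1, rose by 1.07 ± 0.16. Elsewhere on chromosome 9, TRAF1 rose by 2.30 while its neighbours C5, a complement component, and CNTRL changed by −1.18 ± 0.19 and −2.06 ± 0.39. On chromosome 12, GSG1 and EMP1, an epithelial membrane protein, rose by 1.68 and 1.42 ± 0.15, SLC2A14 and SLC2A3 by 1.62 and 2.06, and MSRB3 and HMGA2, a chromatin protein of embryonic cells, changed by −1.01 ± 0.14 and 1.04 ± 0.18. SLC2A14 and SLC2A3 are close duplicates whose signals may be shared between their probe sets, so they may not be separate rises. Whether neighbours move together more often than other pairs was not tested.

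Of 348 olfactory receptor genes, which are silent in most tissues outside the nose, 5 were called higher and none lower, with a median of 0.06 log2. Quantile normalization left 3 called higher.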
